A study of Caenorhabditis elegans with 9 samples.

Results

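The moderately scarce piRNAs were 146 of the 15913 entries of piRNAdb, a database of piRNA sequences, and 146 of the 5252 entries with a sense read in any library. They were the entries whose sense reads came to between 25 and 39 when the 3 wild-type and the 3 prg-1(Rnase-dead) libraries were added up. The rule also left out 4 entries by name, but 0 of those 4 fell inside the window. Reads of prg-1(∆PAZ-domain) animals are not in the rule, although its window was set with earlier results of these data known. Reads of the other genotypes are in the rule, and levels in wild type and RNase-dead are therefore given as a description of what was chosen.

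The libraries held small RNA of whole adult Caenorhabditis elegans hermaphrodites, in batches of 20 to 30 animals kept at 25 °C and taken 24 h past mid-L4, the last larval stage. There were 3 genotypes with 3 libraries each: wild type, prg-1(Rnase-dead), labelled as lacking the nuclease activity of the protein, and prg-1(∆PAZ-domain), labelled as lacking its PAZ domain and called ∆PAZ here. The labels give no allele names or strain backgrounds. A library held 1022428 to 3121968 genome-mapped reads and 1714 to 20802 sense piRNA reads, and no level of the prg-1 transcript was measured against which to check the genotypes.

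In this worm the piRNAs are short germline RNAs that begin with uridine, most of them transcribed one by one from their own small loci. PRG-1, the Piwi-clade Argonaute of the species, binds them, uses them as guides to find target transcripts, and recruits polymerases that make secondary siRNAs on the target. The PAZ domain of an Argonaute grips the 3′ end of the guide, and the RNase activity cuts a paired target. A piRNA without its Argonaute is generally unstable. No target or role of a single entry is given in the tables analysed, so entries are described by their levels.

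Relative to genome-mapped reads, the moderately scarce piRNAs as a group were lower in ∆PAZ animals than in either other genotype. Their summed level was 349, 183 and 287 sense reads per 1000000 genome-mapped reads (RPM) in wild type replicates 1, 2 and 3. In RNase-dead it was 370, 321 and 327 RPM. In ∆PAZ it was 107, 130 and 134 RPM. Every ∆PAZ library lay below every library of the other genotypes, while wild type and RNase-dead overlapped. Group means were 273 ± 84.1 RPM in wild type, with 339 ± 26.7 in RNase-dead and 123 ± 14.8 in ∆PAZ animals (SD, n = 3 each). ∆PAZ thus held 45.3% of the wild-type mean and 36.4% of the RNase-dead mean, and RNase-dead held 124% of wild type. No test was made of these sums, since the members were chosen on reads of 2 of the genotypes. In RNA of whole animals, fewer germ cells and less piRNA per germ cell cannot be told apart.

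Wild type replicate 2 stood apart at 183 RPM, and without it ∆PAZ held 38.8% and RNase-dead 107% of wild type. To see how far the choice of members set these percentages, entries were also chosen on 1 genotype alone. When 142 entries were chosen on RNase-dead reads only, with a window scaled to 14 to 20 reads, ∆PAZ held 44.3% of wild type, with reads of neither of those genotypes in the window. When 146 entries were chosen on wild-type reads only, with a window of 12 to 18 reads, ∆PAZ held 35.3% of RNase-dead. These lists shared 80 and 72 entries with the moderately scarce piRNAs.

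Relative to other piRNAs, the moderately scarce ones in sum took up more of the ∆PAZ libraries, not less. Their share of all sense piRNA reads was 5.88%, 5.56% and 5.93% in the libraries of wild type, 5.55%, 5.68% and 5.35% in those of RNase-dead animals, and 6.36%, 7.02% and 6.83% in ∆PAZ. Each ∆PAZ library was above all 6 others. The group means were 5.79 ± 0.205%, 5.53 ± 0.169% and 6.74 ± 0.338% (SD, n = 3 each). The rise holds for the sum and not for the median member. In the edgeR fit described below, with piRNA counts as library sizes, the median log2 fold change of the members was -0.23 against wild type. Against RNase-dead it was -0.34. In the shallowest library, ∆PAZ replicate 1, the share rested on 109 reads, with an exact Clopper-Pearson 95% interval of 5.25 to 7.62% that covers counting error only and reaches below the other genotypes' shares.

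**Figure D1:**
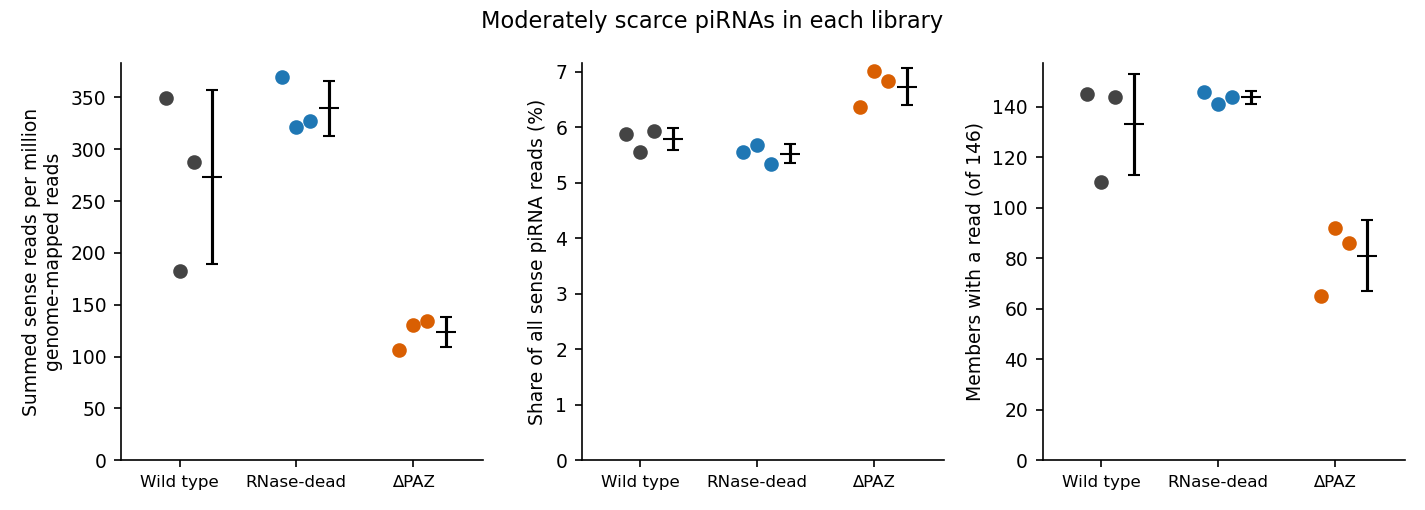
The 146 moderately scarce piRNAs in each library (points), with the mean and SD of 3 libraries beside them: summed sense RPM (left), share of all sense piRNA reads in percent (middle) and number of members with a read (right). ∆PAZ libraries, at 107 to 134 RPM, lie below all others on the left and in the number of members detected, and above all others in the share.

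Fewer of the members were seen at all in ∆PAZ. In wild type 145, 110 and 144 of the 146 had a read, in RNase-dead 146, 141 and 144, and in ∆PAZ 65, 92 and 86. ∆PAZ libraries were also shallow, with 1022428 to 2115662 genome-mapped reads. If every library were drawn down to 1022428 genome-mapped reads, the expected number with a read would be 114 ± 18.1 in wild type, with 129 ± 3.88 in RNase-dead and 67.2 ± 2.72 in ∆PAZ animals (SD, n = 3 each), still without overlap between ∆PAZ and the others. Drawn down instead to 1714 sense piRNA reads, the expected numbers were 68.4 ± 3.45, 68.4 ± 1.42 and 64.3 ± 1.11. At an equal number of piRNA reads, ∆PAZ libraries overlapped with wild type and lay below RNase-dead.

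One by one, the members were at the limit of what these libraries resolve. The pooled rate of a member, its reads in 3 libraries over their genome-mapped reads, was 0.290 to 3.76 RPM in wild type with a median of 1.88. It was 0.528 to 4.23 RPM in RNase-dead with a median of 2.31. In ∆PAZ it ran from 0 to 6.01 RPM with a median of 0.622, which equals 3 counts over that group. Wild-type and RNase-dead rates were held together by the window, whereas ∆PAZ rates were free to vary and spread further at both ends. The variance of reads over members was 5.09 times their mean in ∆PAZ, against 1.74 in wild type and 1.32 in RNase-dead. The 10 members with the most reads held 26.2% of member reads in ∆PAZ, 11.9% in wild type and 10.6% in RNase-dead.

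**Figure D2:**
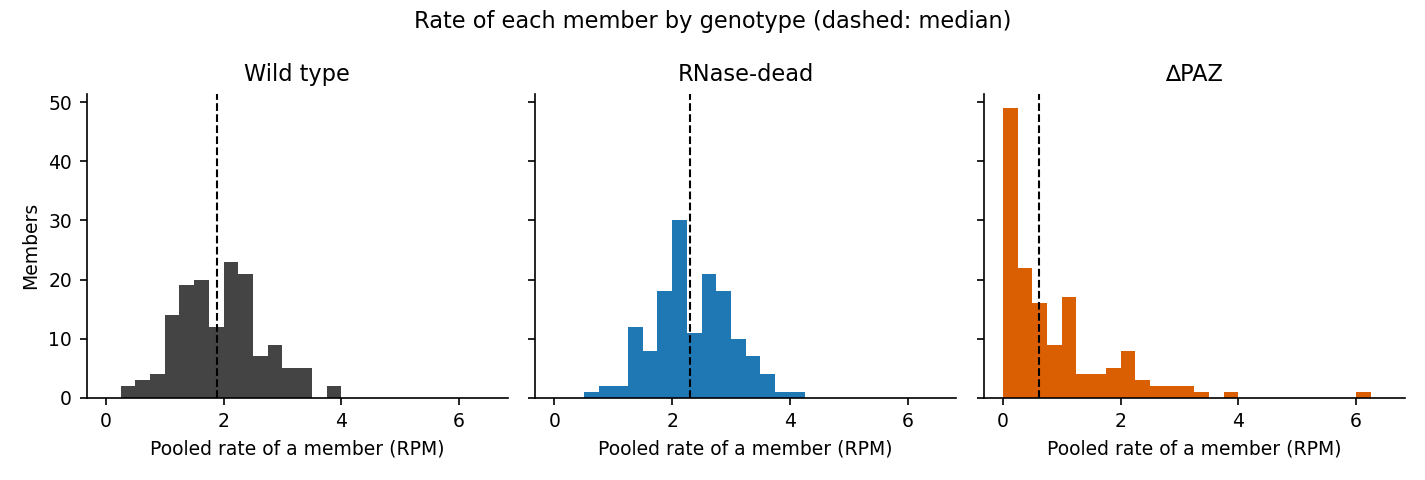
Number of members (vertical axis) by pooled rate in RPM (horizontal axis, bins of equal width) in each genotype, with the median as a dashed line. Wild-type and RNase-dead rates form a hump around 1.88 and 2.31 RPM, as the window requires, while ∆PAZ rates pile up near 0 with a tail to 6.01 RPM.

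The members ran from 0 to 29 reads over the ∆PAZ libraries. There were 30 members (20.5%) with no ∆PAZ read, 57 with 1 to 3 reads, 39 with 4 to 9 and 20 with 10 or more. A read was found in all 3 ∆PAZ libraries for 41 members, in exactly 2 for 45 and in exactly 1 for 30. The pooled ∆PAZ rate was under 50% of wild type for 96 members and above wild type for 21. Against RNase-dead it was under 50% for 103 and above for 14, and 8 members were above both. The members with 10 or more ∆PAZ reads were at a summed 39.4 ± 12.5 RPM in wild type, with 48.8 ± 3.77 in RNase-dead and 52.6 ± 8.40 in ∆PAZ animals (SD, n = 3 each), a class picked on the last of these values. The 30 without a read were at 55.6 ± 18.4 RPM in wild type and 69.4 ± 3.76 in RNase-dead.

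Members with more reads in 1 ∆PAZ library also had more in the others. Members were split by their reads in 1 ∆PAZ library, and their level was then read in the other ∆PAZ libraries, which had no part in the split. The 81 members with no read in replicate 1 had a mean rate of 0.428 RPM per member in the other ∆PAZ libraries, the 33 with 1 read had 1.17 RPM, and the 32 with 2 or more had 1.82 RPM. Split by replicate 2, the rates were 0.396, 0.543 and 1.48 RPM for 54, 36 and 56 members. Split by replicate 3, they were 0.393, 0.517 and 1.47 RPM for 60, 29 and 57 members. The order was the same in all 3 splits, and from the first class to the last the rate was several times higher. In RNase-dead the same classes stayed between 2.29 and 2.41 RPM per member, and in wild type between 1.77 and 2.27 RPM, ranges that the window keeps narrow.

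**Figure D3:**
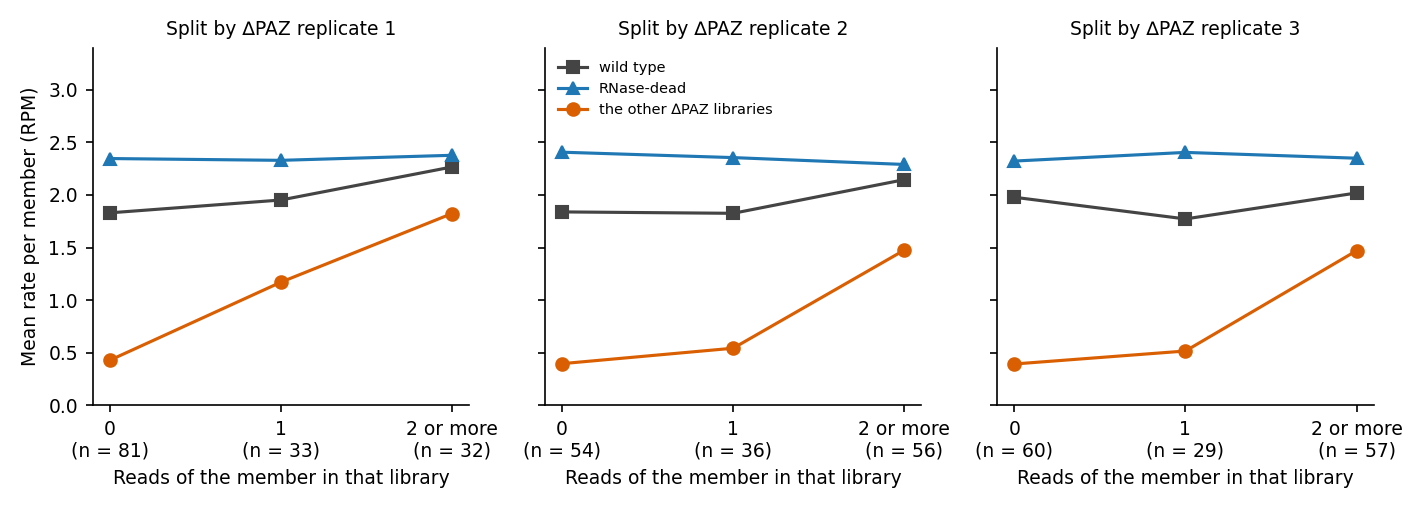
Mean rate per member in RPM (vertical axis) for members with 0, 1 or 2 or more reads in 1 ∆PAZ library (horizontal axis), in a panel for each library used for the split. Circles show the ∆PAZ libraries not used for the split, which rise from 0.393 to 0.428 RPM at 0 reads to between 1.47 and 1.82 RPM, while wild type (squares) and RNase-dead (triangles) stay between 1.77 and 2.41 RPM.

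Single members were tested in the ∆PAZ against wild-type comparison with edgeR's quasi-likelihood test, fitted to 1067 entries in 9 libraries with genome-mapped reads as library sizes. All 146 passed the count filter. At a Benjamini-Hochberg FDR under 0.05, 32 members were lower in ∆PAZ, or 21.9%, where 19.2% of all entries tested were lower. No member was called higher (0 by edgeR, 0 also where p was left unadjusted (under 0.05), and 0 by DESeq2 with genome-mapped size factors), where 1.31% of all entries tested were. Of the 14 entries called higher, 10 had 1 to 9 reads over wild type and RNase-dead and needed ∆PAZ reads to pass the filter. Entries with 40 to 79 and with 80 or more such reads gave 0, without the 4 named in the rule. The median log2 fold change was -1.54 over the members and -1.25 over all entries tested. With a group that had no read set to 3 counts, the median log2 ratio of pooled rates was -1.36 and -0.90. Wild-type reads helped to choose the members, so these counts describe them and nothing is read from their distance to the background. For 45 members every ∆PAZ library lay below every wild-type library, where 27.2% of all entries tested did so, and for 1, cel-piR-9220, every ∆PAZ library lay above, where 3.84% did. The 32 calls became 18 without wild type replicate 1, 14 without ∆PAZ replicate 2 and 16 without ∆PAZ replicate 3.

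The direction of these calls depended on the scaling, for which the study design names genome-mapped reads. With TMM factors 21 members were lower and 0 higher, where 154 and 23 of the 1067 entries tested were. The medians were -0.93 over all entries tested and -1.18 over the members. With library sizes from the piRNA counts, which remove a change common to all piRNAs, 3 members were lower and 7 higher, so that 70.0% of calls were higher in place of 0%. Of the 1067 entries tested, 75 were lower and 78 higher, so calls in both directions were not particular to the members. The median over all entries tested then moved from -1.25 to -0.02 and that of the members from -1.54 to -0.23. With DESeq2 and median-ratio size factors 3 members were lower and 2 higher, 40% higher, where 82 and 27 of all entries tested were lower and higher. The medians were then -0.47 over all entries tested and -0.79 over the members. Under each of these scalings the median of the members stayed below that of all entries tested, which the choice of members favours. Of the entries tested, 137 had 1 to 9 reads over wild type and RNase-dead and needed ∆PAZ reads to pass the filter. Nothing is read from this distance.

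Of the 32 members called lower, 23 had no ∆PAZ read and 9 had 1 or 2 reads. The lowest FDR was that of cel-piR-4865, with 12, 4 and 10 reads in wild type replicates 1 to 3, 4, 3 and 2 in RNase-dead and 0 in each ∆PAZ library. With the ∆PAZ group set to 3 reads, it was 6.06-fold lower than in wild type (edgeR FDR 0.000674). This figure leaves out counting error, and the counting interval of the ratio to wild type reached up to 0.218. For cel-piR-10216 there were 7, 3 and 13 wild-type reads, 3, 4 and 9 RNase-dead reads and none in ∆PAZ. It was 5.36-fold lower by the same reckoning (edgeR FDR 0.00134). Reads of these entries were seen in every library of both other genotypes. The entry cel-piR-3804 had 6, 3 and 12 wild-type reads, 7, 3 and 8 in RNase-dead and none in ∆PAZ. It was 4.89-fold lower so reckoned (edgeR FDR 0.00210). Both cel-piR-10216 and cel-piR-3804 had 39 reads over wild type and RNase-dead, the top of the window. Also without a ∆PAZ read, cel-piR-11944, cel-piR-14308 and cel-piR-4522 were 5.12-fold, 4.66-fold and 4.43-fold lower with ∆PAZ set to 3 reads. The call of cel-piR-4522 rested on wild type replicate 1, which gave 15 of its 19 wild-type reads, and was lost without that library. Of the 30 members without a ∆PAZ read, 7 were not called against wild type. These had 5 to 7 wild-type reads and were 1.16-fold to 1.63-fold lower so reckoned. The upper ends of the counting intervals of their ratios were 0.993 to 1.56, on both sides of parity. Their unadjusted edgeR p ran from 0.0176 to 0.0491, so they failed only after adjustment over all entries tested.

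Of the 20 members with 10 or more ∆PAZ reads, 0 were called in either direction against wild type. The highest ∆PAZ level was that of cel-piR-1297, with 2, 14 and 13 reads in ∆PAZ replicates 1 to 3, against 5, 2 and 11 in wild type and 10, 2 and 6 in RNase-dead animals. Its pooled rate was 6.01 RPM against 2.61 in wild type and 2.38 in RNase-dead, a log2 fold change of 1.17 ± 0.65 (SE) against wild type that did not pass the test (edgeR FDR 0.194). The high values came from ∆PAZ replicates 2 and 3, and replicate 1 overlapped the other genotypes. The next, cel-piR-9220, had 4, 10 and 5 reads in ∆PAZ, against 3, 1 and 6 in wild type and 7, 6 and 12 in RNase-dead animals, and its log2 fold change was 1.43 with an SE of 0.74 (edgeR FDR 0.161). Every ∆PAZ library was above every wild-type library for this member, whereas it overlapped RNase-dead. The other 6 with the most ∆PAZ reads were cel-piR-15164, cel-piR-6227, cel-piR-7927, cel-piR-2112, cel-piR-2659 and cel-piR-3702. They were at 2.69 to 3.32 RPM in ∆PAZ, with log2 fold changes against wild type from -0.09 to 1.07 and edgeR FDRs of 0.356 to 0.965. For cel-piR-2112, 11 of 14 ∆PAZ reads came from replicate 2, and its log2 fold change was -0.18 without that library. The counting interval of the ratio to wild type was 1.24 to 4.41 for cel-piR-1297 and 0.471 to 1.97 for cel-piR-6227. With library sizes from piRNA counts, 6 of these 8 were called higher, among them cel-piR-1297 at a log2 fold change of 2.53 and cel-piR-9220 at 2.80 (edgeR FDR 0.000305 and 0.00102). The 8 were picked for their ∆PAZ reads, which favours such calls. Of the 1067 entries tested, 78 were called higher under this scaling.

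**Figure D4:**
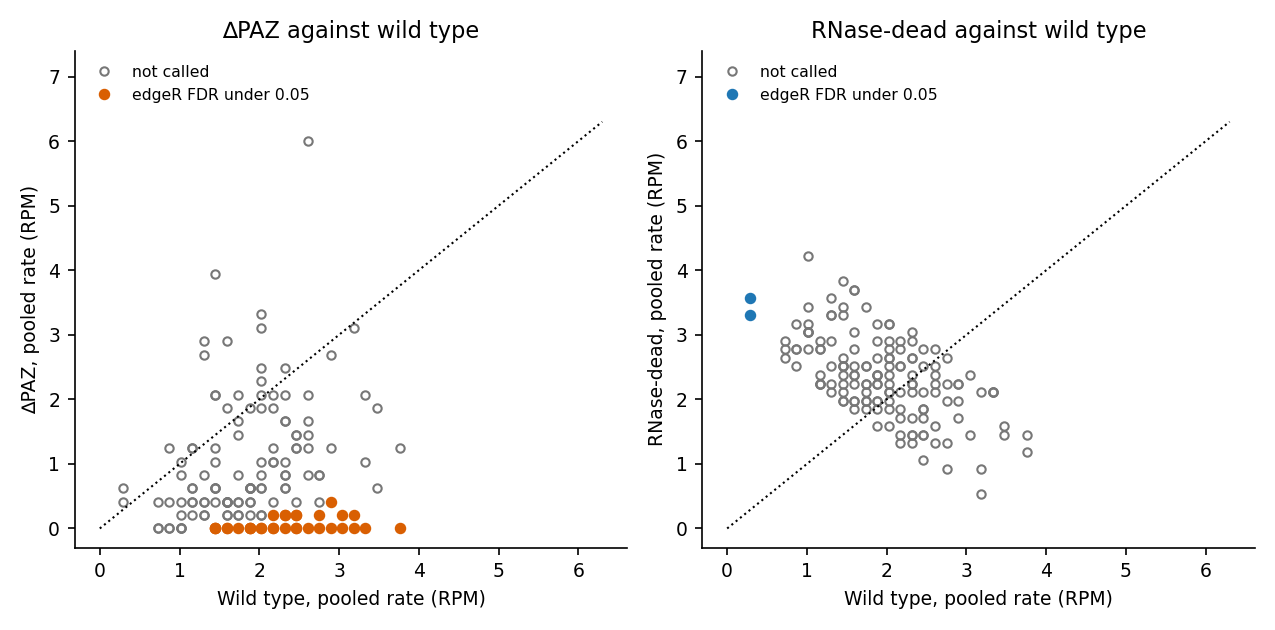
Pooled rate of each member in RPM in ∆PAZ (left) and RNase-dead (right) against wild type, with filled points for edgeR FDR under 0.05 and a dotted line of equal rates. On the left the 32 called members lie at or near 0 and the highest member, cel-piR-1297, is at 6.01 RPM, while on the right 2 members are called and the downward slope of the cloud is set by the window on summed reads.

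∆PAZ was also compared with RNase-dead, in the same fit. Here 48 members were lower, or 32.9%, where 27.7% of all entries tested were, and 0 were higher by edgeR, where 1.03% were, with 2 higher where p was left unadjusted (under 0.05) and 0 by DESeq2 with genome-mapped size factors. Of the 11 entries called higher, 6 had 1 to 9 reads over wild type and RNase-dead and needed ∆PAZ reads to pass the filter. The median log2 fold change was -1.99 over the members and -1.69 over all entries tested, or -1.76 and -1.16 as a ratio of pooled rates with empty groups at 3 counts. For 77 members every ∆PAZ library was below every RNase-dead library, where 43.2% of all entries tested were so, and for 3 it was above, where 3.84% were. These 3 were cel-piR-6227, cel-piR-7927 and cel-piR-12858, the last named after its values were seen, with edgeR FDRs of 0.103, 0.477 and 0.482. Both comparisons use the same ∆PAZ libraries and are not independent of each other. The count became 23 without ∆PAZ replicate 2. With library sizes from piRNA counts 2 members were lower and 10 higher, 83.3% higher in place of 0%, where 80 and 94 of the 1067 entries tested were lower and higher. With TMM factors 24 members were lower and 2 higher, where 180 and 30 of all entries tested were. DESeq2 with median-ratio factors gave 1 lower and 2 higher, where 93 and 36 of all entries tested were.

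Among members called lower than in RNase-dead, cel-piR-5117 came first. It had 14, 9 and 9 reads in RNase-dead, 4, 1 and 2 in wild type and none in ∆PAZ. With ∆PAZ set to 3 reads, the entry was 6.80-fold lower than in RNase-dead (edgeR FDR 0.000178) and 1.63-fold lower than in wild type. Against wild type it was not called (edgeR FDR 0.0730), with a counting interval of the ratio up to 0.993. Its RNase-dead libraries lay above all its wild-type libraries. For cel-piR-7685 the reads were 6, 11 and 9 in RNase-dead and 2, 1 and 7 in wild type, and for cel-piR-13317 they were 11, 5 and 10 and 1, 1 and 5. Neither had a ∆PAZ read, and each was 5.52-fold lower than RNase-dead by the same reckoning (edgeR FDR 0.000551 and 0.000799). The entries cel-piR-6971, cel-piR-11093, cel-piR-12040 and cel-piR-19 were 5.10-fold, 4.89-fold, 4.46-fold and 4.46-fold lower so reckoned. Of the 30 members without a ∆PAZ read 29 were called against RNase-dead, and cel-piR-11944, with 4 RNase-dead reads, was the exception (edgeR FDR 0.173).

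Few members passed the test between RNase-dead and wild type. The median log2 fold change was 0.29 over the members and 0.32 over all entries tested, and 95 of 146 had a higher pooled rate in RNase-dead. By edgeR 2 members were called, where 2.16% of all entries tested were. Both were higher in RNase-dead, or 1.37% of members, where 2.06% of all entries tested were higher, and 0 were lower, where 0.0937% were. The unadjusted p was under 0.05 for 11 members fitted higher and 3 fitted lower. DESeq2, given genome-mapped size factors, called 0 of the 2 members to which it gave an FDR. For 19 members every RNase-dead library was above every wild-type library, where 16.0% of all entries tested were, and for 6 every one was below, where 2.62% were. The rule bounded the sum of wild-type and RNase-dead reads between 25 and 39, so both sides of this comparison entered the choice, and these counts and the values below describe the members without testing them as a group.

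Those called were cel-piR-9151 and cel-piR-12386, which were nearly empty in wild type. The first had 13, 6 and 8 reads in RNase-dead, 1, 0 and 1 in wild type and 0, 1 and 1 in ∆PAZ. Its ratio of pooled rates was 12.3 with a counting interval of 3.10 to 107, and its log2 fold change was 3.37 ± 0.99 (SE, edgeR FDR 0.0406). The second had 12, 8 and 5 reads in RNase-dead, 1, 0 and 1 in wild type and 0, 1 and 2 in ∆PAZ, a ratio of 11.4 with an interval of 2.84 to 99.3 and a log2 fold change of 3.27 with an SE of 1.00 (edgeR FDR 0.0480). In both, RNase-dead libraries stood above all 6 others, and wild type and ∆PAZ overlapped. Neither call held when wild type replicate 2, wild type replicate 3 or any RNase-dead library was left out, nor with TMM factors or with piRNA counts as library sizes. The next 2 by RNase-dead share, cel-piR-5117 and cel-piR-8265, had log2 fold changes of 2.00 and 1.93 (edgeR FDR 0.200 and 0.336).

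At the other end were members with most of their reads in wild type. The entry cel-piR-11944 had 10, 2 and 10 wild-type reads, 1, 2 and 1 in RNase-dead and none in ∆PAZ, which gave a log2 fold change of -2.39 with an SE of 0.91 (edgeR FDR 0.186) for RNase-dead against wild type. For cel-piR-6227 they were 5, 7 and 10 in wild type, 2, 2 and 3 in RNase-dead and 2, 4 and 9 in ∆PAZ, and the log2 fold change was -1.73 with an SE of 0.78 (edgeR FDR 0.310). The member's pooled rates were 0.925, 3.19 and 3.11 RPM in RNase-dead, wild type and ∆PAZ. For cel-piR-4865 and cel-piR-14342 the log2 fold changes were -1.60 and -1.53 (edgeR FDR 0.360 and 0.471). None of these 4 passed the test, and cel-piR-14342 had 0, 2 and 0 reads in ∆PAZ.

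Set beside scarcer and more abundant entries, the moderately scarce piRNAs lay in the middle of a graded series in ∆PAZ only without the 4 entries named in the rule. With the 4 entries named in the rule left out throughout, ∆PAZ held 61.0% of the wild-type mean for 3906 entries with 1 to 9 reads over wild type and RNase-dead, and 52.9% for 503 entries with 10 to 24. It held the 45.3% given above for 25 to 39 reads, 38.97% for 137 entries with 40 to 79, and 19.1% for 140 entries with 80 or more. RNase-dead held 112%, 122%, 124%, 132% and 139% of wild type over the same classes. All classes were cut on wild-type and RNase-dead reads, so a further 416 entries with reads in ∆PAZ alone, 109 ± 7.94 RPM there (SD, n = 3), belong to none of them, and the series is a description without a test. Put back, cel-piR-14240 alone raised the class of 40 to 79 reads from 38.97% to 60.0%, with 146, 180 and 98 reads in ∆PAZ against 7, 1 and 8 in wild type. The series was then no longer graded, and the class of 25 to 39 reads lay below both of its neighbours. The other named entries raised the class of 80 or more reads from 19.1% to 23.9%.

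**Figure D5:**
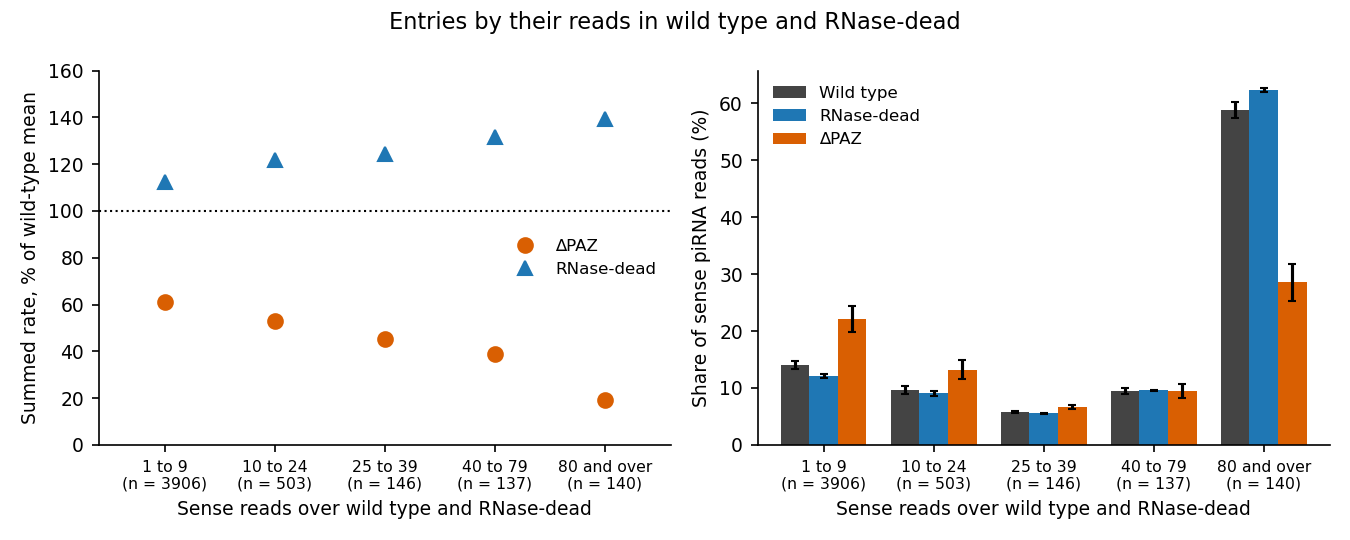
Entries grouped by their sense reads over wild type and RNase-dead (horizontal axis), without the 4 entries named in the rule: summed rate as a percentage of the wild-type mean (left, ratios of means of 3 libraries) and share of all sense piRNA reads in percent (right, bars are means and error bars SD of 3 libraries). The 25 to 39 class is at 45.3% in ∆PAZ, between 52.9% and 38.97% for its neighbours. With the named entries put back (not drawn), the 40 to 79 class is at 60.0% and this order is lost.

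The classes, again without the 4 entries named in the rule, differed in share as well. In ∆PAZ, entries with 80 or more reads held 28.5 ± 3.29% of sense piRNA reads, against 58.9 ± 1.40% in wild type, and those with 1 to 9 reads held 22.2 ± 2.27% against 14.0 ± 0.751% (SD, n = 3 each). The class of 40 to 79 reads held 9.45 ± 1.29% against 9.48 ± 0.574%. With the named entries put back, it held 14.8 ± 1.57% in ∆PAZ against 9.52 ± 0.573% in wild type. The class of 80 or more then held 37.1 ± 2.75% against 61.0 ± 1.86%. The percentage of entries without a ∆PAZ read fell from 74.4% at 1 to 9 reads to 28.6%, 20.5%, 13.1% and 10.7% in the higher classes.

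At the edges of the window ∆PAZ reads varied between neighbouring sums. The 15 entries just outside at 24 reads had 81 ∆PAZ reads with a median of 4, and the 12 just inside at 25 reads had 25 with a median of 1. At 39 reads 11 members had 52 ∆PAZ reads with a median of 4, and at 40 reads 4 entries had 9 with a median of 2. A single entry at 24 reads gave 32 of the 81.

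Antisense reads, which the rule did not use, were few. The members had 76 antisense reads beside 5177 sense reads, 1.45% of both together, where all entries had 9.47%. The rule required at least 25 sense reads, which by itself lowers this percentage, so nothing is read from the difference. None were found for 125 members, and for 0 members did antisense exceed sense. The summed antisense rate was 3.94 ± 1.30 RPM in wild type, with 4.41 ± 2.22 in RNase-dead and 3.38 ± 2.17 in ∆PAZ animals (SD, n = 3 each), and the groups overlapped. Of the 76 reads, 38 belonged to cel-piR-7927, with 4, 3 and 8 in wild type, 8, 6 and 1 in RNase-dead and 4, 2 and 2 in ∆PAZ. This member was found on both strands in all 3 genotypes and was also among the 8 with the most ∆PAZ sense reads. The next, cel-piR-4865, had 6 antisense reads, all in wild type and RNase-dead. No member had the same 9 sense counts as another entry (0 of 146).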

How the data were processed

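The deposited tables gave raw counts of sense and antisense reads per piRNAdb entry (release 1.7.6) and of reads per genome segment for each library, per the file headers. The submitters' processing notes name cutadapt 3.7 and FastQC 0.12.0. The sources used here do not name the aligner, its handling of reads with several matches or the build, and entries of near-identical sequence may share reads. Per the labels' protocols, RNA was treated with a pyrophosphatase, which lets RNAs with a 5′ triphosphate enter the genome-mapped total. Groups and replicate numbers came from the titles, which say hermaphrodite (the growth text also says male). The labels do not say whether replicates were separate cultures, and p-values then measure only a spread between libraries that may be technical.

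RPM is reads per 1000000 genome-mapped reads, and 3 counts equal 0.961 to 2.93 RPM in a library. edgeR 4.0.16 (quasi-likelihood, all 9 libraries in 1 fit, a minimum sum of 10 reads, present in 3 or more libraries) tested 1067 entries with FDR over all of them. An SE is the log2 fold change over the square root of F and rests on a largely pooled spread. Ratio intervals are exact binomial (95%) and cover counting error only, as reads carried no molecular identifiers. Expected numbers at lower depth are hypergeometric. DESeq2 1.42.0, other scalings, windows and left-out libraries were alternatives.

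The members and lists were chosen with earlier results of these data known. Entries named were the 8 with most ∆PAZ reads, the 6 without any and with most other reads, up to 6 called per comparison and direction by size of log2 fold change, 4 at each end of the RNase-dead share and 2 with most antisense reads, ties to the lower number. The entries cel-piR-14240 and cel-piR-12858 were named after its values were seen.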

Additional observations from a re-analysis of the deposited data

How the results depend on the processing

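With all sense piRNA reads as the denominator, the summed rate in ∆PAZ was 116% of wild type and 122% of RNase-dead, and RNase-dead was 95.4% of wild type, each on the other side of parity from the value scaled to genome-mapped reads. Putting the left-out entries back changed nothing, and windows of 20 to 44 and 28 to 36 reads, choosing on 1 genotype, adding antisense reads or leaving out a library moved the percentages by less than the spread between replicates. Without 1 library they ranged over 38.8 to 52.6% (∆PAZ of wild type), 34.9 to 38.9% (of RNase-dead) and 107 to 144% (RNase-dead of wild type). The wider window held 52 members without a ∆PAZ read and raised the difference in share from 0.944 to 1.79 points, and the narrower held 17, since they hold 271 and 89 entries.

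Against wild type, the 32 ∆PAZ calls became 21 under TMM, 10 when piRNA counts set the library sizes, 18 and 5 in DESeq2 on genome-mapped and median-ratio factors, 13 without the count filter, 28 with only the 6 libraries compared (130 members tested, and 142 against RNase-dead), and 14 to 35 without 1 library. Against RNase-dead, the 48 became 26, 12, 29, 3, 24 and 62 (61 of them lower and 1 higher) in that order, and 23 to 45. For RNase-dead against wild type there were 2 with only 6 libraries and 0 under each of the others (the DESeq2 fits gave 2 and 7 members an FDR), and 0 to 2 without 1 library. Except where more entries are tested, the cause was not tested.

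Same-numbered libraries correlated at -0.08 to 0.12 in their deviations from group means, with 2 of 9 pairs over 0.1. With counts this sparse, low correlations cannot show that they share nothing beyond a number. With the replicate block the calls were 22, 37 and 1, and the summed rates 46.6%, 36.3% and 129%. Between wild type and RNase-dead each library correlated best with its own number. Between wild type and ∆PAZ this held for replicates 1 and 2 but not 3, and between RNase-dead and ∆PAZ for none. This is a hint from the data and not the design.

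Among named members 3 changed sign for ∆PAZ against wild type, 0 of them called in the main fit. With library sizes from piRNA counts cel-piR-2112 was called higher (log2 fold change 2.44, edgeR FDR 0.016). For cel-piR-3702 and cel-piR-6227 the log2 fold changes were 0.24 and 0.24 with TMM, 1.22 and 1.23 when piRNA counts set the library sizes, 0.65 and 0.60 under median-ratio factors in DESeq2, and -0.47 to 0.36 and -0.74 to 0.25 without 1 library. For cel-piR-2112 the range was -0.18 to 1.79. With 0 to 29 ∆PAZ reads per member, depth limits what single members can show.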
